A study of Homo sapiens with 12 samples.

Results

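A549, a line derived from a human lung adenocarcinoma, was grown without drug and its RNA was measured at 24 and 48 h, to see how expression in the untreated cultures differed between these times. The comparison uses 6 of the 12 arrays of the series, the 3 labelled untreated at 48 h against the 3 labelled untreated at 24 h, and the labels alone chose them. The other 6 arrays hold cells exposed to cisplatin, a DNA-crosslinking platinum compound, at its no-observed-effect level and collected at the same times. All cultures were seeded at 5000 cells per well in medium with 10% fetal bovine serum and 2 mM L-glutamine, and the drug was added 24 h after seeding, so the untreated arrays stand for cells 48 and 72 h after seeding. They carried no other agent or engineered allele, and the line is a single tumour line with an inactivating KEAP1 mutation, which keeps the antioxidant factor NRF2 active. Culture age, cell density and the age of the medium moved together between the times and cannot be told apart, nor can a change in the share of cells that express a gene and a change in the RNA of each cell.

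Adherent tumour cells in a closed well use up nutrients and growth factors while they divide and come to touch their neighbours. Contact recruits cadherins, catenins and Notch receptors and keeps the growth co-activators YAP and TAZ out of the nucleus. When sterols run short, SREBP factors leave the endoplasmic reticulum and switch on lipid genes. When amino acids run short, the factor ATF4 switches on genes for amino acid synthesis and for the charging of transfer RNAs.

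The values were log2 expression levels from Affymetrix GeneChip Human Exon 1.0 ST arrays, deposited between 2.14 and 14.31, with 1 row per transcript cluster. After rows with no symbol or several symbols were left out, 14232 genes remained. Untreated 24 h replicate 3 stood apart. Its mean correlation with the other arrays was 0.972, against 0.987 to 0.990 for the other 11. On it the dimmest 10% of genes lay on average 0.38 above the mean of the 12 arrays and the brightest 10% at -0.20, while the same figures on the other arrays ran from -0.15 to 0.12 and from -0.03 to 0.07. The methods describe an outlying sample set that was discarded but do not name its arrays, so all arrays were kept here and the comparison is given with and without this one. Epithelial keratins were bright on all 6 untreated arrays, with KRT8 at 13.43 to 13.74 and KRT7 at 12.79 to 12.99, and the pan-leukocyte gene PTPRC was at 3.63 to 4.18. Of 22 measured markers of epithelial carcinoma, blood and endothelium, EPCAM and CDH1 were higher at an unadjusted p under 0.05 from limma, and none of 7 measured fibroblast markers reached it. The summed log2 level of the blood markers was 11.08 to 11.37 at 24 h and 11.10 to 11.16 at 48 h, and that of the fibroblast markers 9.91 to 10.05 and 9.86 to 10.21.

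**Figure D1:**
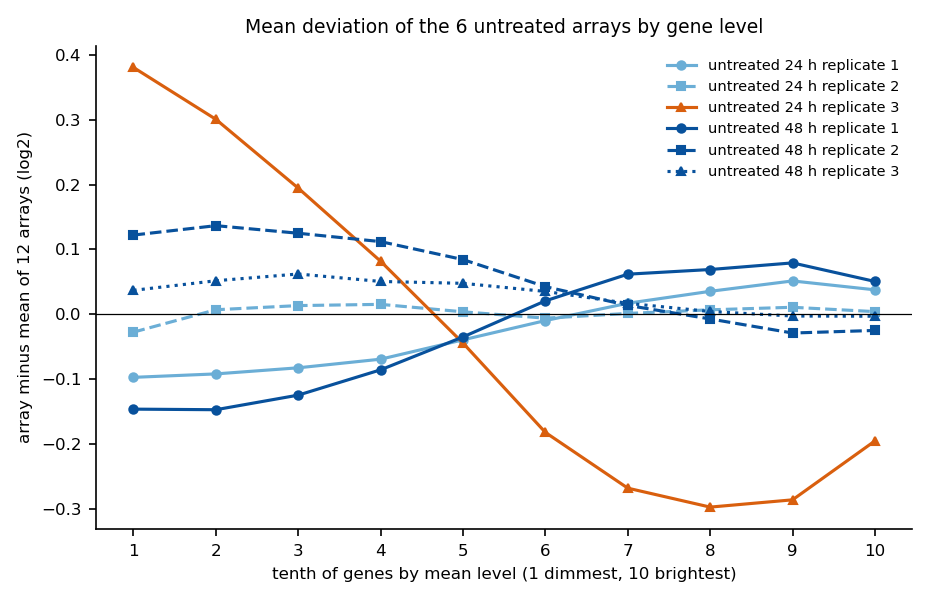
Mean deviation of each untreated array from the mean of the 12 arrays (log2, vertical axis), for genes in 10 classes of mean level (horizontal axis). Untreated 24 h replicate 3 goes from 0.38 in the dimmest class to -0.20 in the brightest, the steepest slope among the untreated arrays. Untreated 48 h replicate 2 shows a smaller fall, from 0.12 to -0.02.

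No gene passed an adjusted p under 0.05 in limma, either with all 12 arrays in the fit or without untreated 24 h replicate 3. Before adjustment, 700 genes were higher at 48 h at p under 0.05 and 137 were lower, which is 4.92% and 0.963% of the genes tested. When untreated 24 h replicate 3 was left out these counts were 374 (2.63%) and 269 (1.89%), so much of the excess of higher genes went with that array. The share of higher genes among them was 83.6% with all arrays, 51.7% after quantile normalization of the arrays and 48.2% after centring them on their medians. The 48 h arrays lay wholly above the 24 h arrays for 834 genes (5.86%) and wholly below them for 207 (1.45%), while leaving out untreated 24 h replicate 3 made these 1192 (8.38%) and 1126 (7.91%). The smallest adjusted p, 0.0590, belonged to HES1 and LINC00173. With an intensity trend and robust variances HES1, LINC00173 and SELENBP1 passed, and among genes above the median level HES1 and SELENBP1 passed. Other settings weakened them. From the untreated arrays alone the adjusted p of HES1 and LINC00173 was 0.882, and the smallest p there belonged to another gene, CCL2. Their adjusted p was 0.346 without untreated 48 h replicate 1 and 0.377 without untreated 48 h replicate 3. The p-values measure the spread between these arrays, which the methods describe as independent experiments and the labels do not.

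HES1, a transcriptional repressor that Notch signalling switches on, had the smallest p. Its log2 level was 9.01, 8.87 and 8.85 on the 24 h arrays and 9.77, 9.53 and 9.69 on the 48 h arrays. Every 48 h array lay above every 24 h array, and the spread within a time was small beside the gap. The difference was 0.76 (SE 0.11), or 1.69-fold, with a 95% interval from 0.52 to 0.99 and an adjusted limma p of 0.0590. Without untreated 24 h replicate 3 it was 0.73, with an adjusted p of 0.202. A stretch of the HES1 promoter is shown here because the gene is the foremost of the comparison and carries the letters bound by RBPJ, the DNA-binding partner of Notch.

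HES1, chr3:194136044-194136103, plus strand: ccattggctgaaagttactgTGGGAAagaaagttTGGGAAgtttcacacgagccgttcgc

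The capitals mark both matches to TGGGAA, which begin 84 and 70 bases before the start of the gene. The sequence is from RefSeq on GRCh38.p14, read 5′ to 3′, and promoters were searched on both strands from 250 bases before to 50 after each start. These letters stood in 24.0% of 35116 promoters, so a match alone is common.

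LINC00173, a long non-coding RNA, was at 7.46, 7.42 and 7.12 at 24 h and at 8.10, 8.07 and 8.12 at 48 h. The 48 h arrays were tightly grouped and lay above all 24 h arrays, of which replicate 3 was lowest. The difference was 0.77 (SE 0.11; adjusted p = 0.0590), and 0.66 without that replicate (adjusted p = 0.193). SELENBP1, a selenium-binding protein that oxidizes methanethiol, was at 8.41, 8.36 and 8.13 and then at 9.33, 9.14 and 9.05. Its groups did not overlap, and the level at 48 h was 1.83-fold that at 24 h (log2 difference 0.88, SE 0.14; adjusted p = 0.0880). FLRT3, a leucine-rich repeat adhesion protein of the cell surface, had the widest difference among the 12 higher genes with the smallest p, 1.01 (SE 0.20). It was at 7.26, 7.74 and 6.92 at 24 h and at 8.42, 8.12 and 8.42 at 48 h, and without replicate 3 the difference was 0.82. JUP, or plakoglobin, which links cadherins to the cytoskeleton in junctions and desmosomes, was at 10.73, 10.72 and 10.47 and then at 11.27, 11.17 and 11.25, a difference of 0.59 (SE 0.11). LHX8, a LIM homeobox factor, and SLC29A4, a plasma membrane transporter of monoamines, were higher by 0.59 and 0.74. The adjusted p of these last 4 genes ran from 0.237 to 0.366.

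**Figure D2:**
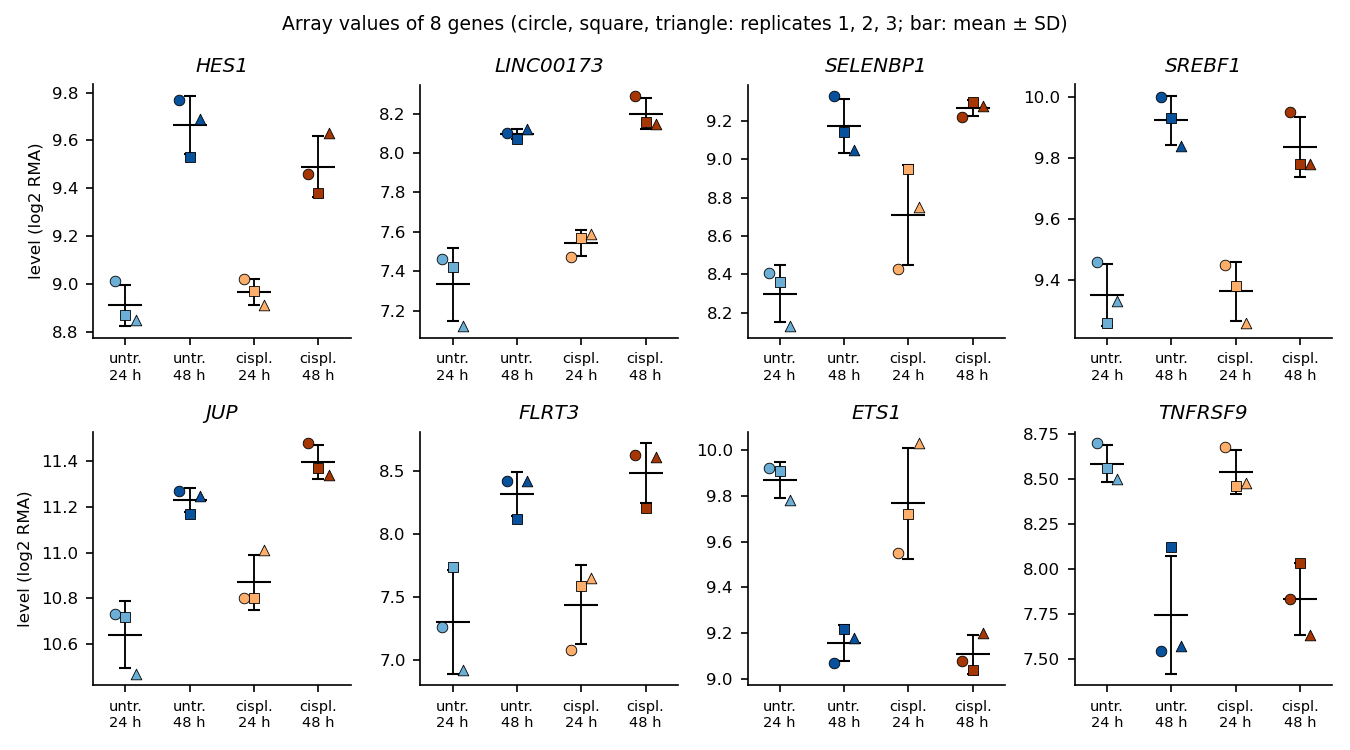
Log2 RMA level (vertical axis) of 8 genes on each array, by treatment and time, with markers for the replicates and bars for the mean and SD of 3 arrays. In all 8 genes the 48 h arrays lie apart from the 24 h arrays in untreated cells, above them in 6 and below them in ETS1 and TNFRSF9, and the cisplatin-treated arrays show the same order. All 8 are among the genes with the smallest p in the untreated comparison, which favours such a separation.

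SREBF1, INSIG1, STARD4 and HILPDA were also among the 12 higher genes with the smallest p. SREBF1 encodes SREBP-1, which switches on the genes of fatty acid synthesis. Its level was 9.46, 9.26 and 9.33 at 24 h and 10.00, 9.93 and 9.84 at 48 h. The groups were well separated, and the difference of 0.57 (SE 0.11; adjusted p = 0.237) was 0.56 without untreated 24 h replicate 3. INSIG1 holds SREBP in the endoplasmic reticulum when sterols are plentiful and is itself an SREBP target. It was at 8.35, 8.12 and 7.73 at 24 h and at 9.37, 8.60 and 8.96 at 48 h. All 48 h arrays were higher, but both groups were wide, and the difference of 0.91 (SE 0.19) was 0.74 without replicate 3. STARD4, a carrier that moves cholesterol between membranes, was at 7.42, 7.50 and 7.51 and then at 8.40, 7.89 and 8.08, higher by 0.65 (SE 0.13), and by 0.67 without that replicate. HILPDA, a lipid droplet protein that inhibits triglyceride breakdown and is induced by hypoxia, was at 9.12, 8.87 and 8.49 and then at 10.22, 9.36 and 9.74, higher by 0.95 (SE 0.19). The adjusted p of the last 3 genes lay between 0.326 and 0.366.

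No member of any gene list passed the adjusted threshold, so lists are described by counts at an unadjusted p under 0.05 and by their median, beside 4.92% higher, 0.963% lower and a median of 0.04 for all genes. Of 21 measured genes in the list of cholesterol synthesis and uptake, 6 were higher at that p and 0 lower. The median difference was 0.19, or 0.10 without untreated 24 h replicate 3. The list also holds genes that restrain synthesis or uptake, INSIG1 and MYLIP among them, so the count gives no direction for the pathway. MVK, mevalonate kinase, was higher by 0.31 and MYLIP, the ligase that removes the LDL receptor, by 0.40. The groups did not overlap for 6 members, all higher, which is 28.6% of the list beside 5.86% of all genes, and for 6 higher and 1 lower without that array, beside 8.38% and 7.91%. The sterol response letters TCACNCCAC stood in 1.13% of all promoters and in 0 of the 19 listed genes with a promoter entry. With so rare a pattern, 19 genes are too few for the 0 to set the list apart from all promoters. Of 22 genes of fatty acid synthesis and desaturation, 5 were higher and 0 lower, with a median of 0.17 that came to 0.06 without replicate 3. SCD, which puts the double bond into oleate, was at 11.16, 11.34 and 10.71 and then at 12.08, 11.41 and 12.00. Replicate 2 at 48 h lay just above the highest 24 h array, and the difference was 0.76 (SE 0.21; unadjusted p = 0.00279). SCD5, the second human desaturase, and LPIN1, a phosphatidate phosphatase, were higher by 0.37 and 0.38.

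The median of the list of fatty acid oxidation genes and PPAR targets also lay above that of all genes. In this list, 22 of 25 measured genes had a positive difference, beside 59.6% of all genes. At an unadjusted p under 0.05, 5 were higher, a number that was 1 without untreated 24 h replicate 3. The list median was 0.20, or 0.14 once that array was left out, beside 0.09 and 0.01 for all genes above the median level. PDK4, a pyruvate dehydrogenase kinase induced by fasting, was at 8.23, 8.55 and 7.66 at 24 h and at 10.30, 8.42 and 9.31 at 48 h. Replicates 1 and 3 at 48 h were far above the 24 h arrays while replicate 2 fell among them, and the difference of 1.20 had an SE of 0.37. CPT2, the inner carnitine palmitoyltransferase, and ACAA1, a peroxisomal thiolase, were higher by 0.47 and 0.27, and by 0.26 and 0.15 without replicate 3.

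**Figure D3:**
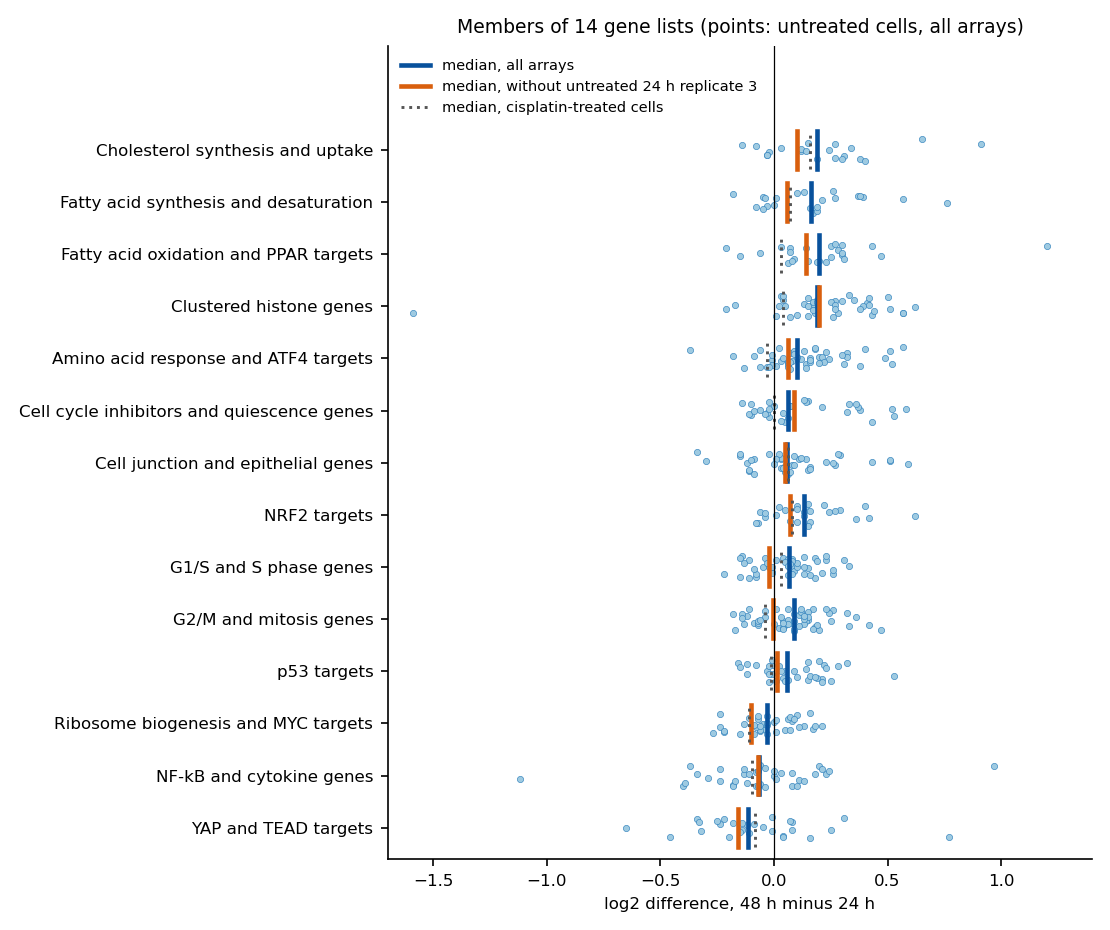
Log2 difference, 48 h minus 24 h, of each measured member of 14 gene lists in untreated cells (points, horizontal axis), with the list median over all arrays, without untreated 24 h replicate 3, and in cisplatin-treated cells. The medians of the cholesterol, fatty acid and histone lists lie between 0.17 and 0.20 with all arrays, and those of the YAP and NF-kB lists at -0.11 and -0.06.

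Among the targets of ATF4, 9 of 51 measured genes were higher at an unadjusted p under 0.05 and 1 was lower, with a median of 0.10 that was 0.06 without untreated 24 h replicate 3 and -0.03 in cisplatin-treated cells. CTH, which makes cysteine from cystathionine, was at 6.52, 6.42 and 6.27 at 24 h and at 7.06, 6.84 and 6.87 at 48 h. Its groups did not overlap and the difference was 0.52 (SE 0.11; adjusted p = 0.366). PHGDH, the first enzyme of serine synthesis, was at 10.56, 10.50 and 10.19 and then at 10.93, 10.94 and 10.90, and SARS1, which charges transfer RNA with serine, was at 10.64, 10.56 and 10.34 and then at 11.08, 10.96 and 10.98. Both were higher on every 48 h array, by 0.51 and 0.49 (SE 0.11 each), and by 0.39 and 0.41 without replicate 3. DDIT4, an inhibitor of mTORC1, was higher by 0.57, and by 0.37 without replicate 3. The lower gene was STC2, a secreted stanniocalcin, with a difference of -0.37 that was -0.51 without that array. HILPDA and DDIT4 also led the hypoxia and glycolysis list, where 3 of 41 genes were higher, 2 were lower and the median was 0.08. BNIP3L, a mitophagy receptor, was the other higher one, by 0.39.

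The lists of cell arrest and cell contact genes had medians near that of all genes. At an unadjusted p under 0.05, 16.1% and 12.5% of their measured members were higher, beside 4.92% of all genes. Of 31 measured cell cycle inhibitors and quiescence genes, 5 were higher at an unadjusted p under 0.05 and 0 lower, in both fits, and the median was 0.06. The repressor BCL6 was at 7.68, 7.74 and 7.51 at 24 h and at 8.54, 7.90 and 8.07 at 48 h, and the unconventional cyclin CCNG2 at 6.97, 7.18 and 6.99 and then at 7.84, 7.12 and 7.76. Replicate 1 was the highest 48 h array and replicate 2 the lowest in both genes, and only in CCNG2 did replicate 2 fall among the 24 h arrays. The differences were 0.52 (SE 0.16) and 0.53 (SE 0.20). YPEL5, a subunit of the CTLH ubiquitin ligase, and ARRDC3, an arrestin-like adaptor, were higher by 0.58 and 0.43. Of 40 junction and epithelial genes, 5 were higher and 1 lower, with a median of 0.06. Beside JUP they included the adhesion proteins EPCAM, at 7.15, 7.16 and 6.86 and then at 7.87, 7.48 and 7.35, and CDH1, or E-cadherin, at 9.19, 8.77 and 8.52 and then at 9.51, 9.16 and 9.35. EPCAM was higher on every 48 h array by 0.51 (SE 0.17), while replicate 2 of CDH1 at 48 h was below replicate 1 at 24 h. CLDN7, a tight junction claudin, was higher by 0.43.

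The counts of proliferation genes depended on untreated 24 h replicate 3. Of 48 measured G1/S and S phase genes, 2 were higher at an unadjusted p under 0.05, which is 4.17% beside 4.92% of all genes. They were GINS4 and MCM2, parts of the replicative helicase, by 0.33 and 0.31. Of 58 G2/M and mitosis genes, 3 were higher (5.17%), among them CDC25C, the phosphatase that activates CDK1, by 0.47. Both shares were near that of all genes. The medians of the 2 lists were 0.07 and 0.09 with all arrays and -0.02 and -0.01 without untreated 24 h replicate 3. Members higher at that p were 1 and 0 without that array, beside 2.63% of all genes. Members lower were 0 in both lists with all arrays and 2 and 1 without that array, beside 1.89% of all genes. The 48 h arrays then lay wholly below the 24 h arrays for 13 and 11 members, beside 7.91% of all genes, where with all arrays they did so for 1 and 0. None of 36 measured p53 targets reached an unadjusted p under 0.05 in either direction, and their median was 0.06, or 0.02 without that array.

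The clustered histone genes, which are transcribed in S phase, stood mostly above 0. Of 45 measured, 42 had a positive difference, beside 59.6% of all genes, 14 were higher at an unadjusted p under 0.05 and 1 was lower. For 18 of them the 48 h arrays lay wholly above the 24 h arrays, which is 40.0% of the list beside 5.86% of all genes. The median of 0.19 was 0.20 without untreated 24 h replicate 3, where 9 were higher and 1 lower. H4C1 was at 8.66, 8.65 and 7.96 at 24 h and at 9.27, 9.10 and 8.76 at 48 h, and H2AC12 at 9.86, 9.61 and 9.31 and then at 10.26, 10.37 and 9.86. The lowest 48 h value of H4C1 lay above the highest at 24 h, while in H2AC12 the lowest at 48 h and the highest at 24 h came out almost level. The differences were 0.62 (SE 0.18) and 0.57 (SE 0.18), and that of H2AC17 was 0.43 (SE 0.13). These 3 genes showed -0.15, -0.00 and 0.05 between the times in cisplatin-treated cells, where the list median was 0.04. The test of the difference between treated and untreated cells gave them unadjusted p-values of 0.0102, 0.0417 and 0.0550, each with an adjusted limma p that rounded to 1. These 3 genes were named for a small p in untreated cells. The test uses those untreated values again, so its p-values are no separate support for a difference between treatments. Clustered histone genes are near-identical copies, so that signal can be shared between probes of different members.

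ETS1, the founding member of a family of growth and invasion factors, had the smallest p among the lower genes. It was at 9.92, 9.91 and 9.78 at 24 h and at 9.07, 9.22 and 9.18 at 48 h. The groups were narrow and far apart, with a difference of -0.71 (SE 0.13), or 1.64-fold lower at 48 h, and an adjusted p of 0.204. With only the other 24 h arrays it was -0.76 (adjusted p = 0.273). TNFRSF9, the co-stimulatory receptor 4-1BB, was at 8.70, 8.56 and 8.50 and then at 7.54, 8.12 and 7.57. Replicate 2 at 48 h again lay nearest to the 24 h arrays, and the difference was -0.85 (SE 0.16; adjusted p = 0.237). FOSL1, the AP-1 subunit FRA1, was at 10.50, 10.90 and 10.54 and then at 9.46, 10.25 and 9.73, a difference of -0.83 (SE 0.19). GREM1, a secreted antagonist of bone morphogenetic proteins, was at 9.42, 9.01 and 9.07 and then at 8.67, 8.43 and 8.54, lower on every 48 h array with a difference of -0.62 (SE 0.14). SMURF2, a ubiquitin ligase of TGF-beta signalling, showed -0.55, PLCB4, a phospholipase C, -0.45, SYNE1, or nesprin-1 of the nuclear envelope, -0.45, and CA8, a carbonic anhydrase relative without enzyme activity, -0.65. In SYNE1 and PLCB4 the differences were larger, -0.59 and -0.53, without untreated 24 h replicate 3.

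**Figure D4:**
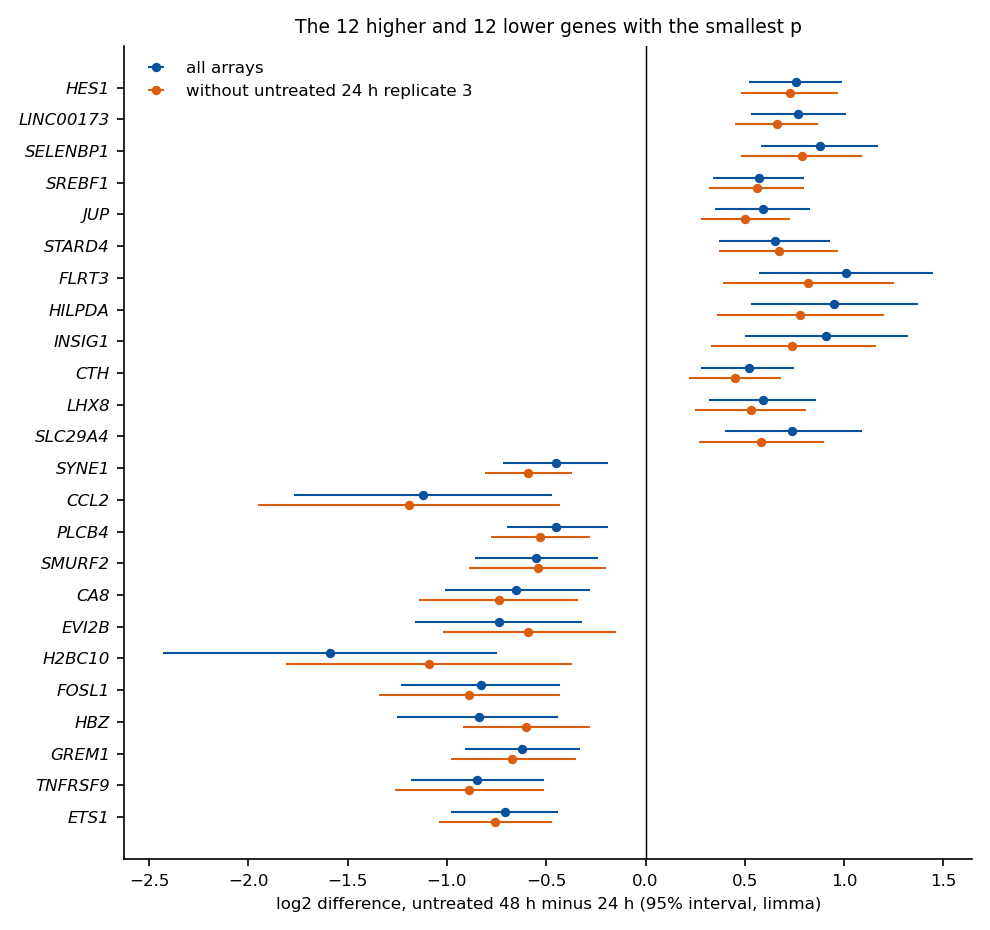
Log2 difference, untreated 48 h minus 24 h (horizontal axis), with 95% limma intervals, for the 12 higher and 12 lower genes with the smallest p, over all arrays and without untreated 24 h replicate 3. HES1 sits at 0.76 and 0.73 and ETS1 at -0.71 and -0.76. None of the 24 genes passed the adjusted threshold. Their intervals leave out 0 over all arrays because they were chosen by p in that fit. They also leave out 0 in the other fit, which shares all its arrays with the first and so is no separate support.

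Members of the list of NF-kB and cytokine genes lay more often below 0 than above. NF-kB is an inflammatory factor held in the cytoplasm by NFKBIA, and not every listed gene is its target. Of 38 measured genes 13 had a positive difference, beside 59.6% of all genes, 3 were lower at an unadjusted p under 0.05 and 1 higher, and the median was -0.06. With all arrays the groups did not overlap for 1 lower gene, CCL2, and 1 higher gene, PTGS2, beside 1.45% and 5.86% of all genes. Without untreated 24 h replicate 3 they did not overlap for 10 lower and 2 higher genes, beside 7.91% and 8.38%. CCL2, the monocyte chemokine, was at 10.57, 10.91 and 10.53 at 24 h and at 9.34, 9.97 and 9.33 at 48 h, wholly apart, with a difference of -1.12 (SE 0.30; adjusted p = 0.624). NFKBIA was at 11.29, 11.36 and 10.92 and then at 10.63, 10.93 and 10.81, and its groups overlapped through untreated 24 h replicate 3. The difference was -0.40, and -0.53 without that array. TRAF1, a signalling adaptor of TNF receptors, showed -0.39. The higher gene was PTGS2, the inducible cyclooxygenase, at 8.06, 8.10 and 7.46 and then at 9.25, 8.27 and 9.01, a difference of 0.97 (SE 0.24; unadjusted p = 0.00117). The promoters of TNFRSF9 and NFKBIA are shown because both genes were lower and both carry NF-kB letters near the start. TNFRSF9 is not a member of the list. No count of the list genes with these letters is given, and whether the letters go with lower levels was not tested.

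TNFRSF9, chr1:7940883-7940933, minus strand: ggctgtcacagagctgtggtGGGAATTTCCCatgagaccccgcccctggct

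NFKBIA, chr14:35404801-35404850, minus strand: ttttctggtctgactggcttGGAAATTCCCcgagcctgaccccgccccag

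The capitals mark the match to the standard NF-kB consensus, which in TNFRSF9 was found on both strands, overlapping and beginning 74 and 73 bases before the start, and in NFKBIA on the strand opposite to the gene, beginning 81 bases before it. Both are from RefSeq on GRCh38.p14, and 5.91% of all promoters held a match on either strand.

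Of 28 measured targets of YAP and TEAD, 3 were lower at an unadjusted p under 0.05 and 1 was higher, and 0 were higher and 6 lower without untreated 24 h replicate 3. Their median was -0.11, or -0.16 without that array, and 9 of the 28 differences were positive. CCN1, a matricellular protein secreted after YAP activation, was at 10.06, 10.12 and 9.90 at 24 h and at 9.48, 9.85 and 9.37 at 48 h. AXL, a receptor tyrosine kinase, was at 12.40, 12.37 and 12.11 and then at 11.83, 12.07 and 11.96. Both genes were lower on every 48 h array, with differences of -0.46 (SE 0.14) and -0.34 (SE 0.12). MYOF, a membrane repair protein, showed -0.24. VGLL3, a TEAD cofactor, was the higher gene, by 0.77, with overlapping groups at low signal. In the list of ribosome biogenesis genes and MYC targets, 1 of 38 was lower with all arrays, UTP20 (-0.27), and 5 were lower once that array was left out, where the median went from -0.03 to -0.10 and the groups did not overlap for 13 genes that were lower, beside 7.91% of all genes. RRS1, needed for the large ribosomal subunit, showed -0.24 and, without that array, -0.51. Of 27 measured NRF2 targets, 6 were higher and 0 lower with all arrays and 2 were higher without it. FTL, the ferritin light chain, was at 10.46, 10.76 and 10.58 and then at 10.97, 11.21 and 11.50, higher on every 48 h array by 0.62 (SE 0.19), and TKT, or transketolase, was higher by 0.24.

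The cisplatin-treated arrays, which share no array with the comparison, were read beside it. There HES1 was higher at 48 h by 0.52, LINC00173 by 0.66, SREBF1 by 0.48, JUP by 0.53 and FLRT3 by 1.04, and ETS1 and TNFRSF9 showed -0.66 and -0.71. Of the 89 genes higher in untreated cells at an unadjusted p under 0.005, 79 had the same sign in treated cells, and so had 13 of the 14 lower genes (0.625% and 0.0984% of those tested), beside 55.5% of all genes. Across the 14232 genes, which are not independent, the differences in the 2 treatments had a Pearson correlation of 0.29, and of 0.39 without untreated 24 h replicate 3. In the other direction, 41 genes (0.288%) stood at that p in treated cells, and 38 of them had the same sign in untreated cells. On these 41 genes untreated 48 h replicate 2 lay closest to the 24 h arrays, with a median deviation towards the 48 h side of 0.07, against 0.33 and 0.26 for replicates 1 and 3. The deviations of this array from its group mean correlated with those of cisplatin-treated 48 h replicate 2 (Pearson r across genes 0.60), so that arrays of the 2 treatments may not be independent of each other.

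**Figure D5:**
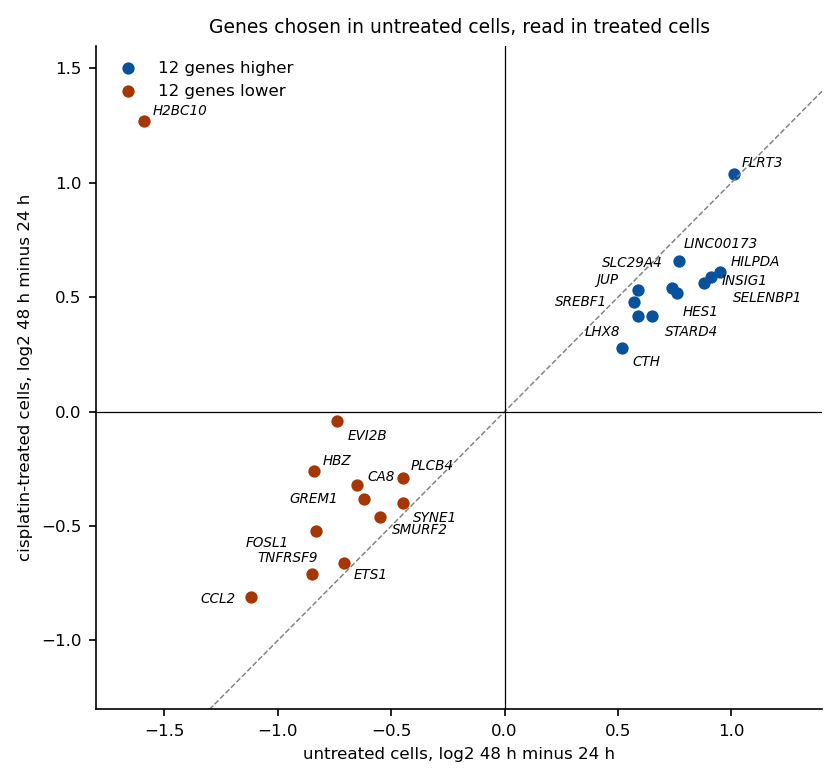
Log2 difference, 48 h minus 24 h, in untreated cells (horizontal axis) and in cisplatin-treated cells (vertical axis) for the 12 higher and 12 lower genes with the smallest p in untreated cells, with the line of equality dashed. The signs are the same for 23 genes, and H2BC10 lies alone at -1.59 and 1.27.

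When the differences of both treatments were averaged in the same fit, 9 genes passed an adjusted p under 0.05 in limma, 7 that rose (0.0492% of those tested) and 2 that fell (0.0141%). This contrast was added after the data had been seen, and it speaks of both treatments together. LINC00173 rose by 0.71 (SE 0.08; adjusted p = 0.00502) and HES1 by 0.64 (SE 0.08; adjusted p = 0.00774). SELENBP1 rose by 0.72, FLRT3 by 1.03, JUP by 0.56, SREBF1 by 0.52 and ARRB1, or beta-arrestin 1, by 0.72, each with an adjusted p of 0.0119. ETS1 fell by 0.69 (adjusted p = 0.00991) and TNFRSF9 by 0.78 (adjusted p = 0.0119). For all 9 genes the 48 h arrays lay apart from the 24 h arrays in both treatments. The genes passed on these same arrays, so this separation is no separate support. Without untreated 24 h replicate 3, 11 genes (0.0773%) passed, the same 9 with SYNE1 and STC2, both of which fell. Leaving out untreated 48 h replicate 1 left 2 that rose and 1 that fell, and leaving out cisplatin-treated 48 h replicate 1 left 2 and 0.

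No gene passed the test of the difference between the treatments in the change from 24 to 48 h, where 163 genes (1.15%) stood at an unadjusted p under 0.05, 47 of them (0.330%) with the larger value in treated cells. H2BC10, a histone H2B gene, had the smallest p. It was at 3.80, 5.17 and 5.99 on the untreated 24 h arrays and at 3.45, 3.37 and 3.38 at 48 h, and at 3.84, 3.26 and 2.88 and then 4.66, 4.79 and 4.34 in treated cells. The arrays were wholly apart in opposite directions, at values near the floor of the deposited range and with a wide spread at 24 h in untreated cells. The differences were -1.59 (SE 0.39) and 1.27. HBZ, embryonic zeta globin, and EVI2B, a membrane protein of blood cells, were at 3.25 to 4.83 and 4.35 to 5.57 on the untreated arrays, with differences of -0.84 and -0.74. All 3 genes were highest on untreated 24 h replicate 3, the array on which dim genes read high, and the differences without it were -1.09, -0.60 and -0.59.

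The fit without untreated 24 h replicate 3 brought forward other genes, none of which passed the adjusted threshold. CREB3L4, a transcription factor bound to the endoplasmic reticulum, was at 6.99 and 6.81 on the 2 remaining 24 h arrays and at 7.46, 7.50 and 7.45 at 48 h, a difference of 0.57 (adjusted p = 0.319). DHRS3, which reduces retinal, was higher by 0.56, RNF43, a ligase that removes Wnt receptors, by 0.59, MOSPD3 by 0.40, and TRDN, or triadin, by 1.02. MOK, a kinase, and SPAG9, a scaffold of JNK signalling, showed -0.45 and -0.48. In CREB3L4, DHRS3 and RNF43 untreated 24 h replicate 3 was the highest of the 24 h arrays, and in MOK and SPAG9 it was the lowest. The adjusted p of these last 6 genes was 0.744.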

How the data were processed

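RNA of A549 cells was hybridised to 12 exon arrays, 3 for each of 4 groups set by treatment and time. Per the methods, the authors used Affymetrix Expression Console with Power Tools and RMA normalization, and they deposited log2 values, 1 per transcript cluster. A sample set taken at 24 h was set aside by the authors after multidimensional scaling. Which arrays it held is not given in the sources used here, and all 12 were kept. Tool versions and genome build are not given in the sources used here. RMA gives no counts or detection calls, so precision rests on the number of arrays.

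Of 22011 clusters, 14432 were paired with 1 symbol by the platform annotation, 2408 with several and 5171 with none. The brightest cluster of each gene was kept (14232 genes). Group means were fitted with limma 3.58.1 in R 4.3.3 on all 12 arrays without covariates, contrasts were moderated by eBayes, and p-values were adjusted by Benjamini-Hochberg over all genes. The same fit gave the cisplatin contrast, the difference between treatments and their average. Gene lists were counted, not tested. The scripts were tested on simulated data.

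Genes named are the 12 higher and 12 lower by p in each of the fits with and without untreated 24 h replicate 3, up to 4 per list and cell type markers. ARRB1, of the average contrast, was named after its values were seen. Members, lists and tests were chosen with earlier results of these data known. Alternatives were the untreated arrays alone, each array left out, a replicate block, quantile normalization, median centring, array weights, genes above the median level, robust variances with an intensity trend, mean of clusters, all clusters and other thresholds.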

Additional observations from a re-analysis of the deposited data

Results flagged for a closer look

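H2BC10 differed between the groups under the same contrast. In untreated cells all 48 h arrays lay below the 24 h arrays, and in cisplatin-treated cells all lay above them. The change from 24 to 48 h in treated cells exceeded that in untreated cells by 2.86 on the log2 scale, with an unadjusted limma p of 1.54e-04 and an adjusted p that rounded to 1, so the difference did not pass over all genes. It passed only when untreated 24 h replicate 1 was left out (adjusted p = 0.00254). The values lie between 2.88 and 5.99 log2, and the part of low signal in the result was not tested.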

How the results depend on the processing

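No gene passed an adjusted p under 0.05 with limma in most settings. The exceptions were the intensity trend with robust variances (3 higher), the genes above the median level (2 higher) and a threshold of 0.10 (3 higher). At an unadjusted p under 0.005, the cutoff of the methods, here applied to all 12 arrays, 89 were higher, 14 lower and 5 differed between treatments. Leaving out 1 array gave 0 higher genes every time, 0 to 1 lower and 0 to 1 that differed between treatments, the 1 being H2BC10 without untreated 24 h replicate 1. The 700 higher and 137 lower genes at an unadjusted p under 0.05 ranged from 374 (without untreated 24 h replicate 3) to 1195 (without untreated 24 h replicate 1) and from 94 (without untreated 48 h replicate 3) to 503 (without untreated 24 h replicate 1). They were 302 and 77 from the untreated arrays alone, 202 higher from those without untreated 24 h replicate 3, 515 and 482 after quantile normalization, 334 and 359 after median centring, 373 lower with array weights, 48 lower among the genes above the median level and 302 lower over all clusters. Without untreated 24 h replicate 3 they were 355 and 278 with array weights and 326 and 457 after quantile normalization. The cause of these shifts was not tested.

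The deviations of same-numbered 24 and 48 h arrays had a Pearson r across genes of 0.64, -0.10 and 0.22 in untreated cells and 0.10, 0.42 and 0.31 in treated cells. For arrays with different numbers r ran from -0.62 to 0.50 in untreated cells and from -0.36 to 0.14 in treated cells. As replicate 2 of the untreated arrays did not deviate together, the numbers were not taken to pair them. Across treatments, r of same-numbered arrays was 0.31, 0.60 and 0.17 at 48 h and -0.34, 0.21 and -0.39 at 24 h. With different numbers it ran from -0.46 to 0.26 at 48 h and from -0.25 to 0.48 at 24 h. Whether arrays with the same number shared an experiment was not tested. A replicate block gave 0 adjusted calls, with 945 higher and 173 lower genes at an unadjusted p under 0.05, and 648 and 624 without untreated 24 h replicate 3.

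The average over both treatments (7 higher, 2 lower) gave 45 and 7 with the replicate block, 60 and 22 with the block and without untreated 24 h replicate 3, 103 and 32 with array weights, 15 and 4 with the intensity trend, 13 higher among the genes above the median level, 10 and 8 after quantile normalization, 2 and 1 at 0.01, 20 and 4 at 0.10, and 152 and 38 at an unadjusted p under 0.005. Without untreated 24 h replicate 3, array weights gave 4 higher and quantile normalization 4 lower. Leaving out 1 array gave 2 to 21 higher and 0 to 4 lower, the most without untreated 48 h replicate 2. All 74 genes followed kept their sign in every alternative run. Most were picked for a small p on these arrays, which the alternatives use again in whole or in part. A kept sign was thus likely beforehand and is no separate support. Without untreated 24 h replicate 3 the medians of genes above and below the median level went from 0.09 and -0.02 to 0.01 and 0.06, so differences of that size cannot be read from list medians. The array weights stopped before they converged. RMA gives no signal over background, which leaves the dim genes with no detection limit.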
